A study of Mus musculus with 15 samples.

Results

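Mammalian mitochondria keep a translation system of their own that makes a small set of respiratory chain proteins from mitochondrial mRNAs. Apart from its RNAs it is built from nuclear gene products. Mitochondrial aminoacyl-tRNA synthetases load tRNAs with amino acids, initiation factors place the first tRNA on the mitochondrial ribosome, elongation factors deliver tRNAs and move the ribosome along, and release and recycling factors free the finished chain and split the subunits. Further proteins stabilise the mRNAs, insert new chains into the inner membrane and help to assemble the ribosome. Muscle, with its high demand for oxidative phosphorylation, is among the tissues affected when such genes carry inherited defects.

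The 35 nuclear genes described here were taken from a list of these proteins: 16 synthetases, 3 initiation, 4 elongation and 4 termination and recycling factors, 3 factors of mRNA stability, translational activation and membrane insertion, and 5 factors of ribosome assembly and support. All 35 were found, each under 1 identifier, among the 39179 gene identifiers measured, and between 0.0759% and 0.0989% of each mouse's counts fell on them. RNA-seq was done on quadriceps muscle of 15 C57BL/6 mice. Wild-type (WT) mice were compared with homozygous knock-in mice that carry the V338Y substitution in the mitochondrial ribosomal protein Mrps5 (V338Y below), with 4 WT and 4 V338Y mice at 3 mo of age and 3 WT and 4 V338Y mice at 19 mo. The knock-in is not limited to muscle.

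Between 8250653 and 18968132 counts were assigned to genes per mouse. The 6 muscle fibre marker genes summed to 117100 to 237000 CPM (reads scaled to a common library size) in every mouse, so the defining markers of muscle were present at a high level. The labels give no sex and the study's methods describe the 3 mo mice as female, but the X-inactivation transcript Xist lay between 506 and 631 CPM at 19 mo and no higher than 0.574 CPM at 3 mo, whereas the Y-linked gene Ddx3y lay between 163 and 202 CPM at 3 mo and no higher than 0.0826 CPM at 19 mo. Every comparison between 3 and 19 mo is therefore also one between mice with and without Y-linked transcripts, and age and sex cannot be told apart in it. The slow fibre genes (7 genes, among them Myh7) summed to 48.9 to 173 CPM at 3 mo, to 67.8, 433 and 807 CPM in the WT mice at 19 mo, and to 128, 58.4, 133 and 2684 CPM in the V338Y mice at 19 mo. V338Y mouse 5 at 19 mo, the one with 2684 CPM, also had the highest sum of 8 neutrophil genes, 614 CPM against 0 to 26.3 CPM in the other mice, and of 6 erythroid genes, 844 CPM against 97.9 to 433 CPM. Results that depend on this mouse are given with and without it. In bulk muscle, fewer cells of a type and less RNA per cell cannot be told apart.

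Per kilobase of transcript the levels of the genes spanned more than an order of magnitude. Tufm, the elongation factor EF-Tu that carries aminoacyl-tRNA to the ribosome, had the highest mean over all 15 mice, 29.6 CPM per kb, followed by C1qbp, a mitochondrial matrix protein linked to ribosome function, with 28.1 CPM per kb, by Lrpprc, which stabilises mitochondrial mRNAs, with 24.7 CPM per kb, and by Gfm1, the translocase EF-G1, with 22.1 CPM per kb. At the other end stood a pair of synthetases, Mars2 for methionine with 0.677 CPM per kb and Pars2 for proline with 0.919 CPM per kb. Lengths are those of 1 annotated protein-coding transcript per gene, and the rank of Mars2 depends on its 11294 bases, the longest of the set. In CPM its group means, 6.53 to 8.55, lay above those of Pars2, 2.59 to 3.15. Pars2 was also the most thinly counted gene of the set, with 19 to 75 reads per mouse. That order was not the same at each age. The group means of Tufm were 33.97 and 36.6 CPM per kb at 3 mo and 22.4 and 23.6 CPM per kb at 19 mo (WT before V338Y at each age), those of C1qbp were 30.0 and 28.8, and then 27.1 and 26.3 CPM per kb, and those of Lars2, the leucine synthetase, were 10.7 and 8.11, and then 26.1 and 33.8 CPM per kb. Tufm was thus the highest of these 3 at 3 mo and the lowest of them at 19 mo. All other values below are CPM, which depends on transcript length and is compared only within a gene.

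**Figure D1:**
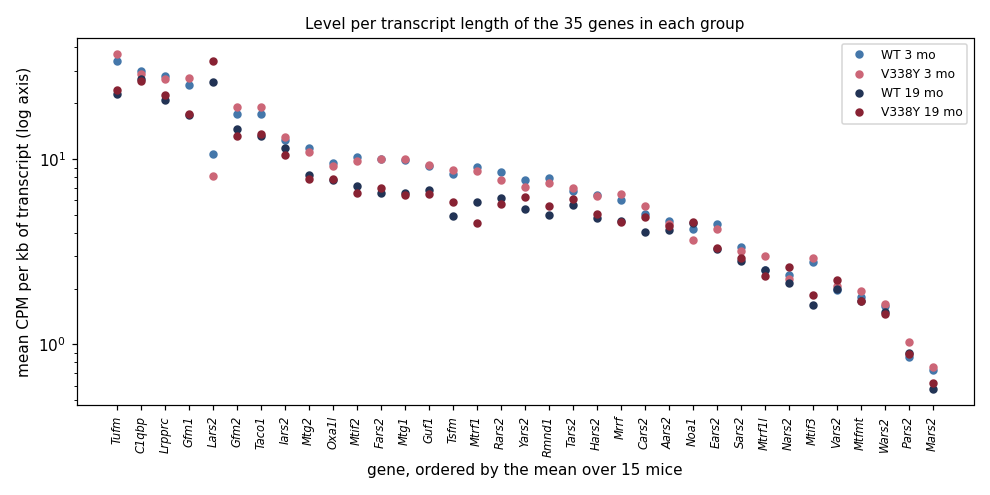
Mean level of each of the 35 genes, in CPM per kb of transcript on a log axis, in the 4 groups of mice, with genes ordered by their mean over all 15 mice. Tufm is at the left end with 29.6 CPM per kb and Mars2 at the right end with 0.677 CPM per kb, and Lars2 is the gene whose 19 mo points lie far above its 3 mo points.

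The main difference was between the ages. In WT mice, 19 of the 35 genes were lower at 19 than at 3 mo and 1, Lars2, was higher (edgeR quasi-likelihood test, Benjamini-Hochberg adjusted p under 0.05 over all genes tested). Among all 13657 genes tested in that comparison 17.8% were called lower and 18.3% higher. In V338Y mice 16 genes were lower and 2, Lars2 and Noa1, were higher, where 22.5% of all 13868 genes tested were called lower and 24.4% higher. The median log2 fold change was -0.37 over the 35 genes against 0.02 over all genes in WT, and -0.31 against 0.07 in V338Y. Estimates were below 0 for 30 of the 35 genes in WT and 31 in V338Y. The values of the 2 ages did not overlap for 22 genes in WT and 20 in V338Y, and over all genes tested the shares without overlap were 43.4% and 42.2%. Without V338Y mouse 5 at 19 mo, 18 genes were called lower in V338Y.

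The calls of the genotypes rest on different mice, but age and sex overlap in the same way in both comparisons. How many of all genes tested were called lower in both was not counted, so the overlap below has no background beside it. Among the genes described here, 15 were called lower in both, of 19 called in WT and 16 called in V338Y. They were the synthetases Ears2, Fars2, Hars2 and Rars2, the initiation factors Mtif2 and Mtif3, the elongation factors Tufm, Tsfm, Gfm1 and Guf1, the termination and recycling factors Mtrf1, Mrrf and Gfm2, and the assembly GTPases Mtg1 and Mtg2. Yars2, Lrpprc, Taco1 and Rmnd1 were called lower in WT alone and Iars2 in V338Y alone. For 13 genes neither genotype gave a call, and 9 of these were synthetases. By class, 5 of 16 synthetases and 14 of the other 19 factors were called lower in WT, and 5 of 16 and 11 of 19 in V338Y, and whether the classes differ was not tested.

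**Figure D2:**
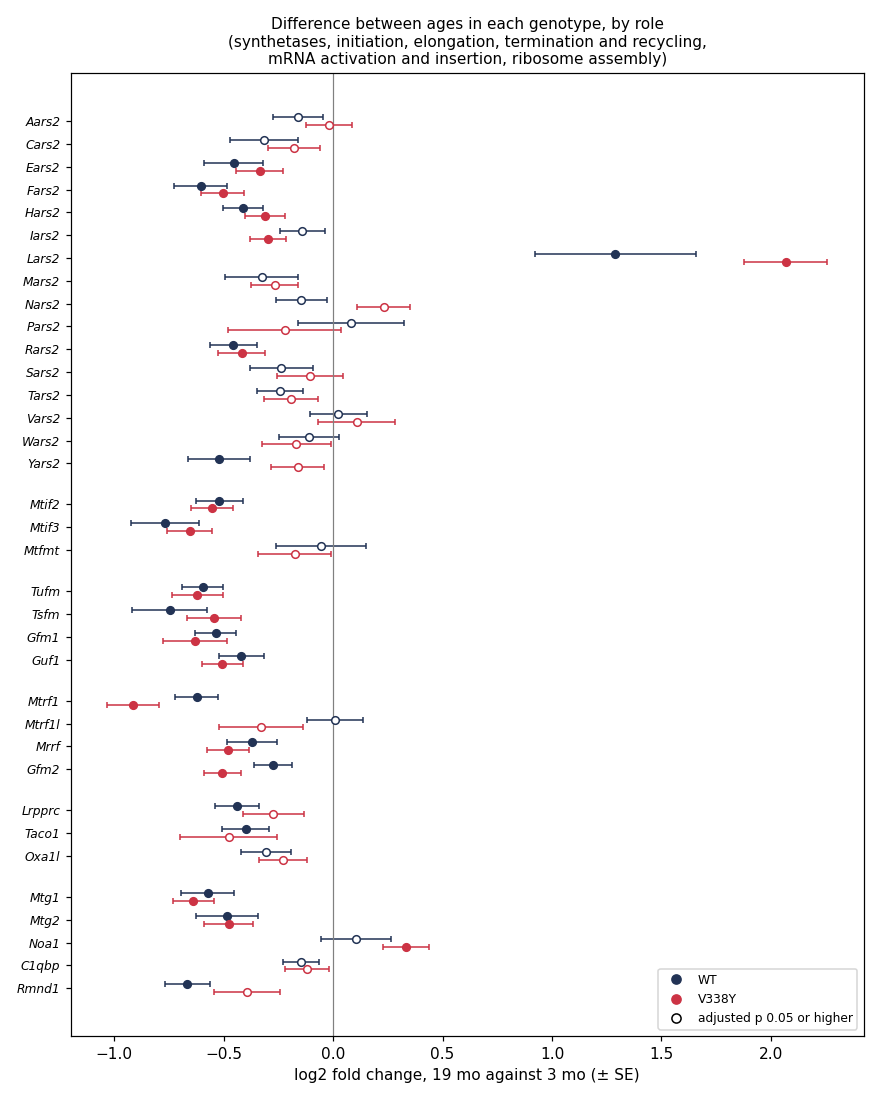
Log2 fold change of each gene between 19 and 3 mo, with its standard error (SE), in WT (blue) and V338Y (red) mice, in blocks by role. Filled points passed an adjusted p of 0.05; the 4 elongation factors are filled in both genotypes, and Lars2 lies alone on the right with 1.29 and 2.07.

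The mouse-by-mouse medians show how far single mice carry this. The median over the 35 genes of each gene's log2 deviation from its mean over all mice was between 0.12 and 0.20 in the 8 mice at 3 mo and between -0.36 and -0.02 in the 7 mice at 19 mo. V338Y mouse 4 at 19 mo was the lowest at -0.36 and V338Y mouse 5 at 19 mo the highest of that age at -0.02. For the 19 factors alone the median was below 0 in all 7 mice at 19 mo, whereas for the 16 synthetases it was 0.04 in V338Y mouse 5.

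**Figure D3:**
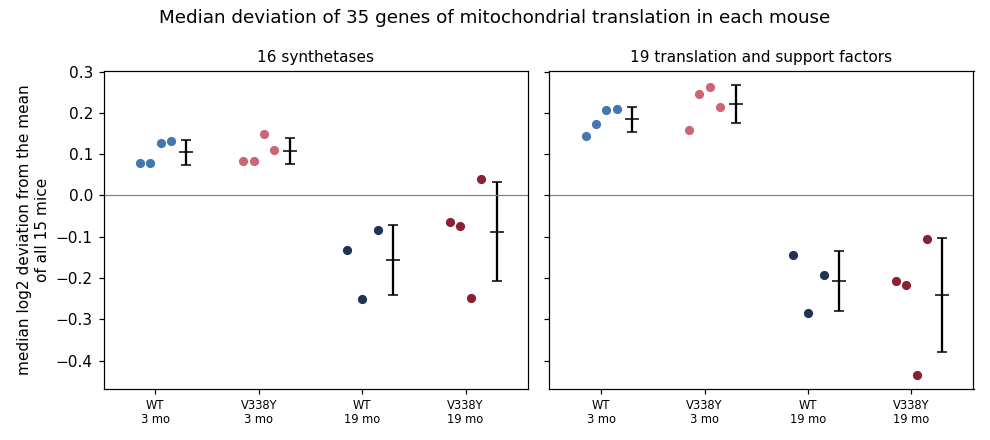
Median log2 deviation from the mean of all 15 mice, over the 16 synthetases (left) and the 19 other factors (right), 1 point per mouse, with the group mean and SD beside the points. The 19 factors are above 0 in all 8 mice at 3 mo and below 0 in all 7 at 19 mo; among the synthetases 1 mouse of the V338Y group at 19 mo lies at 0.04.

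The sequence around the start sites of these genes was searched because many of them moved together. RefSeq promoters (GRCm38.p6, 250 bases before to 50 bases after each start) were found for 30 of the 35 genes, without Guf1, Hars2, Mtif3, Noa1 and Pars2. The NRF1 letters GCGCANGCG, on either strand, were in the window of 10 of 30 genes (33.3%) against 7.03% of all 27025 genes with a promoter, and the ETS letters CCGGAAG in 10 of 30 (33.3%) against 9.93%. The YY1 letters AANATGGCG were in 5 of 30 (16.7%) against 2.76%, and the ATF4 letters TGATGNAA in 0 of 30 against 4.51%. The 27025 genes were not limited to those that passed the count filter here. Shares among the genes tested were not computed. Of the 12 genes that fell in both genotypes and had a promoter, 3 held the NRF1 letters and 5 the ETS letters, and of the 12 called in neither genotype, 5 and 4. The YY1 letters were in 0 of the 12 that fell and 3 of the 12 called in neither. Of those that fell, Tsfm held neither NRF1 nor ETS letters, nor did Ears2, Fars2, Mtrf1 and Mrrf, whose windows are not shown. The windows below, 60 bases before to 20 bases from the start site, are those of the elongation factors with an entry, of Mtif2, Gfm2 and Mtg1, which fell in both genotypes, and of Lars2, which rose; NRF1 and ETS letters are in capitals.
Tufm, chr7:126487295-126487374, plus strand: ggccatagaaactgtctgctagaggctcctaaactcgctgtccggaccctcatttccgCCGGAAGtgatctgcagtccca
Gfm1, chr3:67430055-67430134, plus strand: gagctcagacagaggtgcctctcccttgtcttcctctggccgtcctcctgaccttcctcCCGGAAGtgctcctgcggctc
Tsfm, chr10:127030795-127030874, minus strand: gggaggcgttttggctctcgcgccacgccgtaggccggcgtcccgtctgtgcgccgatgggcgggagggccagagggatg
Mtif2, chr11:29526337-29526416, plus strand: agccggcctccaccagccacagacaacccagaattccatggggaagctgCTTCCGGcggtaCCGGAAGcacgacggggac
Gfm2, chr13:97137877-97137956, plus strand: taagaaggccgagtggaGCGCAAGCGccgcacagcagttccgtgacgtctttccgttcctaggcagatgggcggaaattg
Mtg1, chr7:140137504-140137583, plus strand: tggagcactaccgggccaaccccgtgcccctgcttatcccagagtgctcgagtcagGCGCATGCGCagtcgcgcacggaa
Lars2, chr9:123366867-123366946, plus strand: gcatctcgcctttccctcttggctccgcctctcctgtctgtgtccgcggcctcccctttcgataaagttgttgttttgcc

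In these windows Tufm, Gfm1 and Mtif2 carry the ETS letters at or next to the start site, Mtif2 on both strands, Gfm2 and Mtg1 carry the NRF1 letters, and Tsfm and Lars2 carry neither. A match of letters is a description of the sequence and no evidence of binding.

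The elongation factors were the class in which all 4 genes fell in both genotypes. Tufm (chr7:126487361-126490731, GRCm38) read 54.3, 53.3, 62.7 and 57.8 CPM in the WT and 63.3, 61.6, 65.1 and 56.1 CPM in the V338Y mice at 3 mo. At 19 mo its values were 36.5, 36.2 and 40.3 CPM in WT and 45.2, 36.6, 32.7 and 44.1 CPM in V338Y mice. The highest 19 mo mouse of either genotype was below the lowest 3 mo mouse, and the log2 fold change was -0.60, SE 0.09, adjusted p = 0.00179 in WT and -0.62, SE 0.12, adjusted p = 0.00233 in V338Y. Tufm shares 56.7% of its 50-base stretches with the gene Gm9755 on the same strand, so its reads may be split between them.

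Gfm1 (chr3:67430096-67476529), which moves the ribosome to the next codon, gave 95.5, 98.9, 105 and 111 CPM (WT) and 109, 109, 125 and 102 CPM (V338Y) at 3 mo. It gave 68.6, 66.2 and 77.4 CPM (WT) and 73.9, 70.9, 51.95 and 87.8 CPM (V338Y) at 19 mo. The ages did not overlap in either genotype, V338Y mouse 4 at 19 mo was the lowest of all mice, and Gfm1 fell by 0.54 (SE 0.09, adjusted p = 0.00283) in WT and by 0.63 (SE 0.15, adjusted p = 0.00635) in V338Y on the log2 scale. Tsfm (chr10:127011572-127030840), the exchange factor that recharges EF-Tu, read 10.48, 8.44, 11.9 and 9.42 CPM in WT and 9.88, 10.7, 10.2 and 11.2 CPM in V338Y mice at 3 mo, and 6.15, 6.88 and 4.88 CPM and 7.51, 6.50, 6.12 and 8.22 CPM at 19 mo. Its ages did not overlap in either genotype, with differences of -0.75, SE 0.17, adjusted p = 0.00929 in WT and -0.54, SE 0.12, adjusted p = 0.00592 in V338Y. Guf1, a back-translocating GTPase, fell by 0.42 (adjusted p = 0.0125) and 0.51 (adjusted p = 0.00219).

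**Figure D4:**
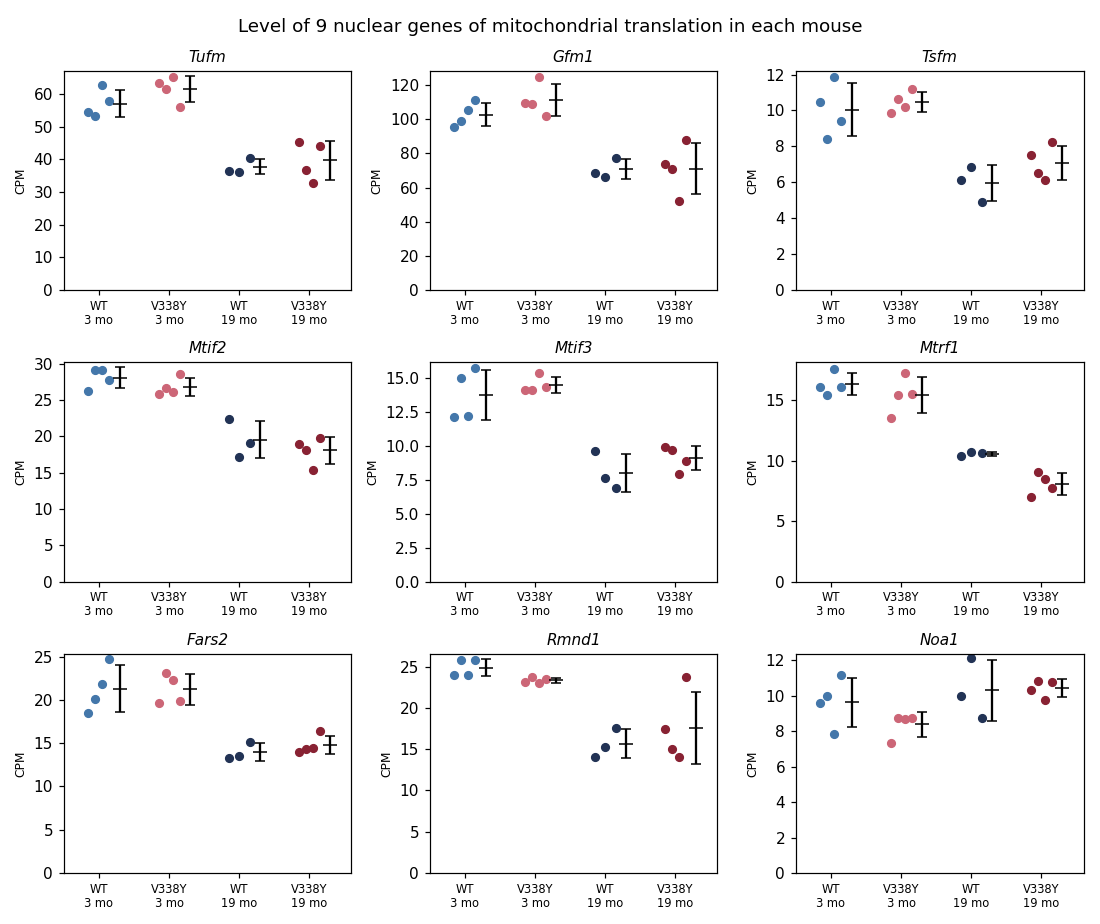
CPM of 9 genes in each mouse, 1 point per mouse, with the group mean and SD beside the points; each axis starts at 0. In Tufm, Gfm1, Tsfm, Mtif2, Mtif3, Mtrf1 and Fars2 all 19 mo mice lie below all 3 mo mice of their genotype, in Rmnd1 V338Y mouse 5 at 19 mo lies among the 3 mo mice, and Noa1 goes the other way in V338Y.

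Of the initiation factors, Mtif2 and Mtif3 fell in both genotypes and Mtfmt, the enzyme that formylates the initiator methionyl-tRNA, passed the test in neither. Mtif2 (chr11:29526408-29545279), which brings the initiator tRNA to the ribosome, read 26.2, 29.2, 29.2 and 27.8 CPM in WT and 25.8, 26.7, 26.1 and 28.6 CPM in V338Y mice at 3 mo. At 19 mo it read 22.4, 17.2 and 19.1 CPM in WT and 19.02, 18.2, 15.3 and 19.7 CPM in V338Y mice. The ages were apart in both genotypes, with log2 fold change -0.52, SE 0.11, adjusted p = 0.00636 in WT and -0.55, SE 0.10, adjusted p = 0.00167 in V338Y.

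Mtif3 (chr5:146951573-146963800), which keeps the ribosomal subunits apart before initiation, gave 12.1, 14.96, 12.2 and 15.7 CPM in WT and 14.1, 14.1, 15.4 and 14.3 CPM in V338Y mice at 3 mo, and 9.56, 7.62 and 6.86 CPM and 9.91, 9.65, 7.92 and 8.86 CPM at 19 mo. No 19 mo mouse reached the range of its genotype at 3 mo. In WT this was the largest fall of the set (log2 fold change -0.77, SE 0.15, adjusted p = 0.00543), and in V338Y the change was -0.66, SE 0.10, adjusted p = 0.000899. Mtif3 lies over Gtf3a on the opposite strand, which holds 25.0% of its 50-base stretches, and the strand setting of the counting is not given in the sources used here. Mtfmt read 3.66 ± 0.279 CPM (SD, n = 4) in WT at 3 mo and 3.51 ± 0.918 CPM (SD, n = 3) at 19 mo, a difference within the spread between mice.

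Among the termination and recycling factors, Mtrf1, a release factor, showed the largest fall of the set in V338Y. Mtrf1 (chr14:79397772-79423587) read 16.1, 15.5, 17.6 and 16.1 CPM in WT and 13.6, 15.4, 17.3 and 15.6 CPM in V338Y mice at 3 mo. At 19 mo it read 10.4, 10.7 and 10.7 CPM in WT and 7.01, 9.11, 8.52 and 7.77 CPM in V338Y mice. The 4 V338Y mice at 19 mo were the lowest of the 15, the WT mice of that age lay next, and the log2 fold change with age was -0.62, SE 0.10, adjusted p = 0.00178 in WT and -0.91, SE 0.12, adjusted p = 0.000393 in V338Y.

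Gfm2 (chr13:97137937-97181195), the EF-G2 that splits spent ribosomes, read 76.8, 73.7, 81.7 and 78.6 CPM in WT and 79.1, 86.2, 88.2 and 82.9 CPM in V338Y mice at 3 mo. At 19 mo its values were 63.97, 59.4 and 68.9 CPM in WT and 55.9, 61.4, 53.8 and 63.7 CPM in V338Y mice. The ages were apart in both genotypes, with log2 fold change -0.28, SE 0.09, adjusted p = 0.0332 in WT and -0.51, SE 0.09, adjusted p = 0.00141 in V338Y. Mrrf, the recycling factor that works with Gfm2, fell by 0.37 (adjusted p = 0.0297) in WT and by 0.48 (adjusted p = 0.00306) in V338Y.

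Mtrf1l (chr10:5811887-5823910), the main release factor, was the exception. It read 6.92, 6.31, 6.23 and 6.61 CPM in WT and 6.43, 7.62, 8.10 and 9.10 CPM in V338Y mice at 3 mo, and 6.09, 7.02 and 6.53 CPM and 5.61, 7.77, 4.21 and 6.74 CPM at 19 mo. The ages overlapped in both genotypes and neither difference passed the test (0.01 with an SE of 0.13 in WT, -0.33 with an SE of 0.19 in V338Y). The WT estimate is close to 0 and turned negative, -0.0015, with RLE size factors.

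Of the 16 synthetases, 10 had levels that the test could not separate between ages in each genotype. Fars2, for phenylalanine, had the smallest p of those that fell in WT. Fars2 (chr13:36117412-36726280) read 18.5, 20.1, 21.9 and 24.7 CPM in WT and 19.6, 23.1, 22.3 and 19.8 CPM in V338Y mice at 3 mo, and 13.3, 13.5 and 15.1 CPM and 14.01, 14.3, 14.4 and 16.4 CPM at 19 mo. The ages were apart, and the changes were -0.61, SE 0.12, adjusted p = 0.00504 in WT and -0.51, SE 0.10, adjusted p = 0.00274 in V338Y. Rars2 (chr4:34614957-34660167), for arginine, read 16.4, 15.5, 17.2 and 14.3 CPM in WT and 13.7, 14.3, 15.6 and 14.2 CPM in V338Y mice at 3 mo, and 12.4, 11.3 and 10.8 CPM and 11.3, 12.1, 9.33 and 10.1 CPM at 19 mo. It fell by 0.46 (adjusted p = 0.0113) and 0.42 (adjusted p = 0.0107), again without overlap. Hars2 (histidine) fell by 0.41 and 0.31 and Ears2 (glutamate) by 0.46 and 0.34 in WT and V338Y.

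Iars2, for isoleucine, was called in V338Y alone, with log2 fold change -0.30, SE 0.08, adjusted p = 0.0151, against -0.14 (SE 0.10) in WT, and it shares 30.0% of its 50-base stretches with Rab3gap2 on the opposite strand. Yars2, for tyrosine, was called in WT alone. Yars2 (chr16:16302965-16309640) read 11.8, 9.78, 12.99 and 14.1 CPM in WT and 11.9, 10.4, 11.1 and 11.2 CPM in V338Y mice at 3 mo, and 8.26, 8.50 and 8.59 CPM and 11.4, 9.04, 8.42 and 10.7 CPM at 19 mo. The WT mice of the 2 ages did not overlap (log2 fold change -0.52, SE 0.14, adjusted p = 0.0189), whereas V338Y mouse 2 at 19 mo was above 3 of the 4 V338Y mice at 3 mo (log2 fold change -0.16, SE 0.12, adjusted p = 0.292). For this change the age by genotype term was not called (adjusted p = 0.558), nor was that of Iars2 (adjusted p = 0.675).

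The 2 synthetases with the lowest levels per kb did not change past the test. Mars2 (chr1:55237177-55248470) read 6.56, 9.57, 8.29 and 8.34 CPM in WT and 8.32, 8.19, 8.60 and 9.10 CPM in V338Y mice at 3 mo, and 7.08, 5.40 and 7.11 CPM and 6.50, 7.503, 6.82 and 7.26 CPM at 19 mo. Pars2 (chr4:106651069-106655282) read 2.64, 2.41, 2.78 and 2.54 CPM in WT and 4.31, 2.29, 3.47 and 2.53 CPM in V338Y mice at 3 mo, and 3.602, 1.85 and 2.73 CPM and 3.50, 2.75, 1.91 and 2.70 CPM at 19 mo. In Mars2 the V338Y mice of the 2 ages did not overlap (log2 fold change -0.27, SE 0.11, adjusted p = 0.0619), and in Pars2 the estimates were 0.08 (SE 0.24) in WT and -0.22 (SE 0.26) in V338Y. Aars2, Cars2, Nars2, Sars2, Tars2, Vars2 and Wars2 had estimates from -0.32 to 0.02 in WT and from -0.19 to 0.23 in V338Y.

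Lars2 moved against most of the other genes, with the largest estimates of the set. Lars2 (chr9:123366927-123462666, plus strand) read 72.9, 38.9, 37.9 and 16.8 CPM in WT and 42.8, 33.1, 28.8 and 21.5 CPM in V338Y mice at 3 mo. At 19 mo it read 104, 84.1 and 116 CPM in WT and 116, 155, 134 and 121 CPM in V338Y mice. Every 19 mo mouse was above every 3 mo mouse, and Lars2 rose by 1.29, SE 0.37, adjusted p = 0.0240 in WT and by 2.07, SE 0.19, adjusted p = 8.83e-05 in V338Y on the log2 scale, 2.45-fold and 4.20-fold. The WT call was lost when WT mouse 2 or 3 at 3 mo or WT mouse 5 at 19 mo was left out (adjusted p = 0.0544, 0.0599 and 0.0586), while the V338Y call held in each such fit.

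Among the WT mice at 3 mo Lars2 ranged from 16.8 to 72.9 CPM. Across the 15 mice the genes whose log2 levels were most like those of Lars2, of 9517 compared, were Gm42418 (Pearson r = 0.972) and Gm15564 (r = 0.968), as a description over mice that also differ in age. Smarca4 (r = 0.948), Tbc1d5 (r = 0.941) and Ctif (r = 0.939) came next, with values not far below. RefSeq lists Gm42418 (chr17:39846958-39848788) as a synonym of Rn18s-rs5, a sequence related to 18S ribosomal RNA. Gm42418 read 577, 398, 425 and 266 CPM in WT and 547, 375, 267 and 206 CPM in V338Y mice at 3 mo, and 1182, 1219 and 1313 CPM and 1290, 1516, 1478 and 1265 CPM at 19 mo. Together with its neighbour Gm26917 it summed to 614 to 1291 CPM in the 3 mo and 3399 to 4921 CPM in the 19 mo mice. Gm26917 alone did not follow Lars2 among the WT mice at 3 mo, with 507, 465, 562 and 836 CPM. Gm15564 (chr16:35966752-35983230, minus strand, annotated as antisense) shares a stretch of 72 bases at 98.6% identity with bases 3278 to 3349 of the protein-coding transcript of Lars2, and it read 0.115 to 6.83 CPM at 3 mo and 10.1 to 18.2 CPM in the WT and 15.8 to 20.03 CPM in the V338Y mice at 19 mo. A blastn search of the Lars2 transcripts against Gm42418 and Gm26917 listed no match. Gm42418 and Gm15564 moved with Lars2, and the part of any of these genes in the rise of Lars2 was not tested. Without Lars2, the median log2 fold change of the remaining 34 genes was -0.39 in WT and -0.32 in V338Y.

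**Figure D5:**
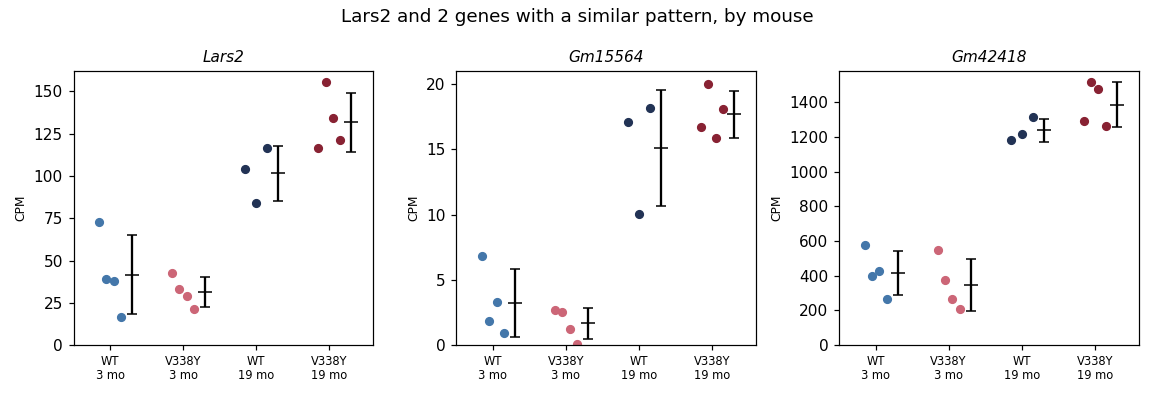
CPM of Lars2, Gm15564 and Gm42418 in each mouse, 1 point per mouse, with the group mean and SD beside the points; each axis starts at 0. All 7 mice at 19 mo lie above all 8 at 3 mo in the 3 genes, and the WT mouse at 3 mo with 72.9 CPM of Lars2 is also the highest 3 mo mouse in the other two.

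The 3 factors of mRNA stability, translational activation and membrane insertion were called lower in WT for Lrpprc and Taco1 and in V338Y for none. Lrpprc (chr17:84705247-84790789) read 113, 126, 136 and 121 CPM in WT and 104, 127, 126 and 115 CPM in V338Y mice at 3 mo, and 92.7, 82.1 and 98.99 CPM and 92.8, 91.5, 79.2 and 124 CPM at 19 mo. V338Y mouse 5, the highest of its group, lay among the 3 mo mice and the other 3 V338Y mice at 19 mo lay below them. Lrpprc changed by -0.44, SE 0.10, adjusted p = 0.00918 in WT and gave log2 fold change -0.27, SE 0.14, adjusted p = 0.131 in V338Y, which became -0.41 (adjusted p = 0.0129) without mouse 5. Oxa1l, the insertase of the inner membrane, was likewise called in V338Y only without that mouse (-0.34, adjusted p = 0.0106). Taco1, the translational activator of the cytochrome oxidase subunit I mRNA, fell by 0.40 in WT (adjusted p = 0.0181) and was -0.48 with an SE of 0.22 in V338Y.

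The ribosome assembly and support factors went in different directions. Mtg1 (chr7:140137564-140150786), a GTPase of large subunit assembly, read 16.1, 15.7, 16.04 and 14.9 CPM in WT and 16.4, 15.2, 15.9 and 16.5 CPM in V338Y mice at 3 mo, and 11.99, 10.7 and 8.84 CPM and 10.8, 10.4, 8.93 and 10.53 CPM at 19 mo. The ages were apart in both genotypes, with log2 fold change -0.57, SE 0.12, adjusted p = 0.00668 in WT and -0.64, SE 0.09, adjusted p = 0.000704 in V338Y. Mtg2, its companion GTPase, fell by 0.49 (adjusted p = 0.0256) and 0.48 (adjusted p = 0.00668).

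Rmnd1 (chr10:4401915-4432388), which anchors the mitochondrial ribosome at the inner membrane, had the smallest p of the set in WT. It read 23.96, 25.8, 23.99 and 25.7 CPM in WT and 23.1, 23.7, 23.1 and 23.5 CPM in V338Y mice at 3 mo, and 14.1, 15.3 and 17.6 CPM and 17.4, 15.1, 14.04 and 23.7 CPM at 19 mo. Mouse 5 again stood among the 3 mo mice, at 23.7 CPM. The change was -0.67, SE 0.10, adjusted p = 0.00166 in WT and -0.39, SE 0.15, adjusted p = 0.0550 in V338Y, and -0.57 (adjusted p = 0.00182) in V338Y without mouse 5. Rmnd1 shares 30.5% of its 50-base stretches with Gm5512 on the same strand.

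Noa1 (chr5:77294182-77310084), a GTPase of small subunit assembly, read 9.57, 9.996, 7.82 and 11.1 CPM in WT and 7.35, 8.76, 8.68 and 8.75 CPM in V338Y mice at 3 mo, and 9.999, 12.1 and 8.76 CPM and 10.3, 10.8, 9.73 and 10.8 CPM at 19 mo. In V338Y all 19 mo mice were above all 3 mo mice (log2 fold change 0.33, SE 0.11, adjusted p = 0.0277), and in WT the ages overlapped (log2 fold change 0.10, SE 0.16, adjusted p = 0.631). The V338Y call was lost with DESeq2 (adjusted p = 0.0861) and without V338Y mouse 1 or 3 at 3 mo or mouse 3 at 19 mo (adjusted p = 0.0737, 0.0517 and 0.0603). C1qbp (chr11:70977836-70983026) read 33.2, 37.1, 35.6 and 35.1 CPM in WT and 33.3, 33.8, 33.1 and 35.2 CPM in V338Y mice at 3 mo, and 30.7, 32.9 and 31.8 CPM and 31.2, 32.9, 25.5 and 33.9 CPM at 19 mo. Its estimates were -0.15 (SE 0.08) in WT and -0.12 (SE 0.10) in V338Y, neither past the test.

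Several calls did not hold in every fit that left out 1 mouse. Such fits also called fewer genes over all genes tested in WT, 1636 to 2366 lower against 2435 with all mice. In WT, Gfm2 was no longer called without WT mouse 1, 3 or 4 at 3 mo or mouse 2 or 4 at 19 mo (adjusted p 0.0619 to 0.123), Mrrf without mouse 2, 3 or 4 at 3 mo or mouse 2 or 5 at 19 mo (0.0533 to 0.0721), and Mtg2 and Ears2 without mouse 3 or 4 at 3 mo or mouse 4 or 5 at 19 mo (0.0603 to 0.0914). Yars2 lost its call without mouse 3 at 3 mo or mouse 4 at 19 mo (0.0523 and 0.0549), and Guf1 and Taco1 without mouse 4 at 19 mo (0.0512 and 0.0668). In V338Y, Ears2 was not called without mouse 2, 3 or 4 at 3 mo or mouse 4 or 5 at 19 mo (0.0565 to 0.0676), Iars2 without mouse 3 at 3 mo (0.0513) and Hars2 without mouse 4 at 3 mo (0.0536). Rmnd1, Mtrf1, Tufm, Gfm1, Fars2, Mtif3, Mtif2, Mtg1, Hars2, Lrpprc, Tsfm and Rars2 in WT, and Mtrf1, Mtg1, Mtif3, Gfm2, Mtif2, Guf1, Tufm, Fars2, Mrrf, Tsfm, Gfm1, Mtg2 and Rars2 in V338Y, stayed lower in every fit that left out 1 mouse.

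No gene of the 35 passed the test for the V338Y mutation at either age. At 3 mo none was called (edgeR, lowest adjusted p 0.558), none had an unadjusted p under 0.05, and DESeq2 called none. Over all 13333 genes tested, 0.075% were called and 9.7% had an unadjusted p under 0.05. The median log2 fold change, V338Y against WT, was 0.02 over the 35 genes. Of Mtrf1l, Gfm2, Noa1, Rars2, Gfm1 and Tufm, which had the smallest p, the largest estimates were 0.26 (SE 0.13) for Mtrf1l and -0.20 (SE 0.13) for Noa1. Rmnd1 alone did not overlap between the genotypes, with the 4 V338Y mice just below the 4 WT mice (23.1 to 23.7 against 23.96 to 25.8 CPM), where 4.71% of all genes did not overlap. Its estimate was -0.09 (SE 0.07, adjusted p = 0.709).

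At 19 mo, again no gene was called by edgeR (lowest adjusted p 0.537) or by DESeq2, against 0.0434% of 13833 genes by edgeR, and 2 of the 35 had an unadjusted p under 0.05, against 8.92% of all genes. These were Mtrf1 (log2 fold change -0.36, SE 0.12, adjusted p = 0.537), whose 4 V338Y mice lay below the 3 WT mice, and Lars2 (log2 fold change 0.40, SE 0.15, adjusted p = 0.537). Mtrf1 was the 1 gene of 35 without overlap, where 9.78% of all genes did not overlap. Without V338Y mouse 5 at 19 mo no gene was called either. Same-numbered mice deviated together on average at this age, though some differently numbered mice did so as much. The comparison was therefore also fitted with the mouse number as a block, in which V338Y mouse 3 has no partner and adds nothing to the estimate. No gene of the 35 was called with that block (Mtrf1 at -0.41, adjusted p = 0.185, and Nars2 at 0.39, adjusted p = 0.199), while over all genes 97 were called higher and 13 lower, against 5 and 1 without the block.

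Next came the synthetases for asparagine and cysteine. Nars2 (chr7:96951505-97064758) read 7.95, 7.84 and 8.51 CPM in WT and 9.81, 8.44, 9.93 and 11.2 CPM in V338Y mice at 19 mo, and 8.47, 8.65, 9.74 and 8.97 CPM and 7.98, 7.998, 9.09 and 8.87 CPM at 3 mo. Cars2 (chr8:11513977-11550783) read 7.95, 7.32 and 7.93 CPM in WT and 9.11, 10.3, 7.82 and 9.96 CPM in V338Y mice at 19 mo, and 10.7, 7.30, 10.01 and 10.7 CPM and 9.59, 11.8, 10.8 and 10.48 CPM at 3 mo. In both genes 1 V338Y mouse at 19 mo fell within the WT range, and the estimates were 0.31 (SE 0.14) for Nars2 and 0.30 (SE 0.13) for Cars2, each with an adjusted p of 0.557. Yars2 and Tsfm followed with 0.25 (SE 0.14) and 0.27 (SE 0.18).

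Whether the change with age differed between the genotypes was tested in 1 model of all 15 mice. No gene of the 35 was called (edgeR, lowest adjusted p 0.485), as none was by DESeq2, and of all 14128 genes tested 0% were called by edgeR. The 1 gene with an unadjusted p under 0.05, against 9.59% of all genes, was Nars2, at -0.15 with age in WT and 0.23 in V338Y (difference 0.37, SE 0.15). Gfm2 (-0.24, SE 0.11), Mtrf1 (-0.30, SE 0.15), Yars2 (0.35, SE 0.18), Lars2 (0.77, SE 0.45) and Mtrf1l (-0.34, SE 0.24) followed. A call in 1 genotype and not in the other, as for Rmnd1 or Noa1, is thus not shown to be a difference between genotypes.

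The mutated gene itself, Mrps5 (chr2:127587222-127606829), a small subunit protein, read 23.6 ± 1.83 and 25.7 ± 1.503 CPM (SD, n = 4 each) in WT and V338Y mice at 3 mo and 17.6 ± 1.79 (SD, n = 3) and 17.4 ± 1.63 CPM (SD, n = 4) at 19 mo. It fell with age by 0.42 (adjusted p = 0.0153) and 0.55 (adjusted p = 0.00161), and its total count cannot show a single codon substitution, so it does not check the genotype labels. Mrrf and Mtg2 are the genes of the set on its chromosome, 91.4 and 52.5 Mb away.

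The rest of the mitochondrial translation pathway gave counts in the same direction, where 17.8% of all genes tested were lower in WT and 22.5% in V338Y. Of the mitochondrial ribosomal proteins, 27 of 31 tested of the small and 44 of 48 of the large subunit were lower at 19 mo in WT, and 29 of 31 and 46 of 48 in V338Y, with none higher. Their medians were -0.46 in WT and -0.54 in V338Y for the small and -0.56 in WT and -0.67 in V338Y for the large subunit, against -0.37 and -0.31 for the 35 genes described here. Mrps7 (-0.59, SE 0.08, adjusted p = 0.00119), Mrpl34 (-0.90, SE 0.11, adjusted p = 0.000535) and Mrpl50 (-0.87, SE 0.10, adjusted p = 0.000552) had among the smallest p in WT. Of 20 mitochondrial tRNA processing and modification genes, 10 were lower in WT and 8 in V338Y, led by Trmt10c, Mto1 and Trit1 in WT, and of 19 genes of mitochondrial transcription and RNA handling, 10 and 11 were lower and 0 and 1 higher, led by the transcription and packaging factor Tfam (-0.68, SE 0.09, adjusted p = 0.000873 in WT and -0.95, SE 0.10, adjusted p = 0.000183 in V338Y). Of 6 further genes that charge mitochondrial tRNAs, among them Gars, Kars and the subunits of the glutamyl-tRNA amidotransferase, 3 were lower in each genotype.

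Of 18 cytosolic synthetases, 9 were lower and 2 higher at 19 mo in WT, and 13 were lower and 1 higher in V338Y, where of all genes tested 17.8% were lower and 18.3% higher in WT and 22.5% and 24.4% in V338Y. Sars (-0.57, SE 0.09, adjusted p = 0.00188), Nars (-0.52, SE 0.09, adjusted p = 0.00219) and Yars (-0.45, SE 0.09, adjusted p = 0.00426) fell and Vars (0.63, SE 0.10, adjusted p = 0.00156) rose in WT, and the cytosolic Nars and Yars are different genes from Nars2 and Yars2. The mitochondrially encoded mRNAs, the templates of this system, did not follow as a set: of 9 tested of 13, 4 were higher and 1 lower in WT and 4 higher and 0 lower in V338Y. The rest of the 13 did not pass the count filter. Estimates were below 0 for 4 of the 9 in WT and 3 in V338Y, with medians of 0.04 and 0.68. The sums of the 13 overlapped between the ages, at 21880 to 23480 against 17580 to 27010 CPM in WT and 23160 to 24150 against 11600 to 30540 CPM in V338Y. The largest estimates were those of mt-Nd2, at 1.69, SE 0.20, adjusted p = 0.000542 in WT and 1.85, SE 0.28, adjusted p = 0.000731 in V338Y.

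Some markers of muscle and of other cell types also differed between the ages. Over all genes tested, 18.3% were called higher and 17.8% lower in WT, and 24.4% and 22.5% in V338Y. The counts for adipocyte genes in WT lie near these shares. The 6 muscle fibre genes summed to 190000 to 227200 CPM in WT and 208900 to 237000 CPM in V338Y mice at 3 mo, and to 164800 to 197100 CPM and 117100 to 187000 CPM at 19 mo. In V338Y these sums did not overlap between the ages, 3 of the 6 genes were lower and their median log2 fold change was -0.60, and in WT the sums overlapped, 2 of 6 were lower and the median was -0.16. All 7 slow fibre genes were called higher at 19 mo in WT (median log2 fold change 3.62). The sum of WT mouse 2 at 19 mo, 67.8 CPM, lay within the WT range at 3 mo, 57.1 to 71.3 CPM. In V338Y none passed the test (lowest adjusted p 0.0549), with all 7 estimates above 0 and a median of 2.85. These V338Y estimates include mouse 5, with 2684 CPM. The sums of the other V338Y mice at 19 mo, 58.4 to 133 CPM, lay within the V338Y range at 3 mo, 48.9 to 173 CPM. The 8 fast fibre genes summed to 109700 to 125000 CPM at 3 mo and 65740 to 128800 CPM at 19 mo, with 3 lower and 1 higher in WT and 4 lower and 1 higher in V338Y. Of 7 macrophage genes 4 were higher in each genotype, and of 6 endothelial genes 2 were higher in WT and 3 in V338Y. Of the neutrophil genes tested, 0 of 2 were called in WT and 6 of 7 were higher in V338Y. Their V338Y sums at 19 mo were 2.80, 26.3, 5.01 and 614 CPM. Of the B and plasma cell genes tested, 2 of 3 were higher in WT and 5 of 6 in V338Y, though their sums overlapped between the ages. Of the erythroid genes tested, 2 of 5 were lower in WT and 1 of 6 was higher in V338Y, a share below that of all genes. Of 8 adipocyte genes, 2 were lower and 1 higher in WT (median log2 fold change -0.86), and 3 were higher and 0 lower in V338Y (median 0.99). Of 6 fibroblast genes 3 were lower in each genotype and 1 was higher in WT. The part of these markers in the lower levels of the 35 genes was not tested.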

How the data were processed

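The authors isolated RNA from quadriceps with TRIzol, sequenced stranded libraries as single reads and deposited 1 file of gene-level RSEM expected counts (not whole numbers in every case before rounding) per mouse. Per the labels, CASAVA 1.8, bcl2fastq 1.8.4 and STAR 2.4.2a were used with GRCm38 for mouse, whereas the paper's methods print an older build name; positions given here are GENCODE M21 on GRCm38. Depth was 8250653 to 18968132 counts per mouse, which covers counting error only.

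Expected counts were rounded, and genes that reached 10 counts in 50% or more of a compared group's mice were tested with edgeR 4.0.16 (quasi-likelihood, TMM, R 4.3.3), with the 2 groups compared in each fit and all 15 mice for the age by genotype term; p-values were adjusted by Benjamini-Hochberg over all genes tested and called under 0.05. All 35 genes passed the filter in every comparison. CPM used TMM library sizes; the log2 scale used a pseudocount of 0.5. SE is the log2 fold change over the square root of F. The scripts were tested on simulated counts. Stretches shared between transcripts were counted as exact 50-mers, and Lars2 was compared by blastn 2.17.0.

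The 35 genes and all gene lists were chosen with earlier results of these data known. Values of every mouse are given for up to 6 genes with the smallest p per comparison, for genes called higher, and for the 4 highest and 2 lowest levels per kb. Deviations from the group mean were correlated over genes between mice. Between genotypes at 19 mo the mean r was 0.262 over 3 same-numbered pairs (0.137 to 0.410). It was -0.084 over 9 pairs with different numbers (-0.416 to 0.486). The highest r was that of V338Y mouse 3 with WT mouse 2, so a pairing is not established, and the labels state none. In the other comparisons the mean r of same-numbered pairs was -0.052 to 0.013. Alternatives were DESeq2 1.42.0, RLE size factors, upper-quartile normalization, no filter, filterByExpr, leaving out mitochondrially encoded genes, a replicate block, a fit of all 15 mice and leaving out each mouse.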

Additional observations from a re-analysis of the deposited data

Results flagged for a closer look

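Of 105 sets of 4 mice (35 genes in 3 groups), 5 held a mouse that stood apart from the other 3 by Dixon's ratio, and chance gives about 1 in 20. Tars2, the threonine synthetase, read 14.5 CPM in V338Y mouse 4 at 19 mo against 21.0 to 22.0 CPM in the other 3, the mouse that was also lowest in Gfm1. Oxa1l, the inner membrane insertase, read 24.3 CPM in V338Y mouse 5 at 19 mo against 17.9 to 18.6 CPM, the mouse with the highest slow fibre and neutrophil sums. Vars2, the valine synthetase, read 10.1 CPM in WT mouse 4 at 3 mo against 8.09 to 8.38 CPM. Noa1 read 7.35 CPM in V338Y mouse 1 at 3 mo against 8.68 to 8.76 CPM, and Mtif3 read 15.4 CPM in V338Y mouse 3 at 3 mo against 14.1 to 14.3 CPM.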

How the results depend on the processing

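Under the alternatives other than leaving out a mouse, 113 summary values stayed within 1.5 times or within the spread and 4 moved, and for single genes 660 values kept direction and call, 23 lost a call, 9 gained one and 6 changed sign. The replicate block brought the genes called lower in WT from 19 to 6 of the 35 and left 1 higher in V338Y. Over all 13657 genes tested in WT, the block brought those called lower from 2435 to 1038. In that WT comparison the 2 same-numbered pairs correlated at 0.00367 and 0.0217, and the labels do not state what the numbers stand for. Over the 3 V338Y age pairs r ran from -0.135 to 0.0153 and over the 4 genotype pairs at 3 mo from -0.174 to 0.155, and not every mouse correlated best with its own number. For the genotype comparison at 19 mo the block changed no call among the 35 genes. DESeq2 and no filter each left 1 gene called higher in V338Y. Sign changed for Mtrf1l in WT with RLE (-0.0015), DESeq2 (-0.0013) and no filter (-0.017), for Vars2 in WT with no filter (-0.0011) and the block (-0.073), and for Mtfmt in WT with the block (0.13). Leaving out 1 mouse gave 13 to 19 genes lower and 0 to 1 higher in WT, 14 to 18 lower and 1 to 2 higher in V338Y, and 0 for genotype at each age and for the age by genotype term. The median log2 fold change then ran from -0.42 to -0.34 in WT, -0.35 to -0.30 in V338Y, -0.029 to 0.020 for genotype at 3 mo, 0.018 to 0.12 at 19 mo and -0.0041 to 0.12 for the age by genotype term. In these fits the WT estimate ran from -0.056 to 0.056 for Mtrf1l, -0.044 to 0.098 for Vars2, -0.19 to 0.28 for Pars2, -0.041 to 0.20 for Noa1 and -0.28 to 0.098 for Mtfmt, and the V338Y estimate from -0.098 to 0.042 for Aars2 and -0.063 to 0.21 for Vars2. The cause of these changes was not tested. The limits are 3 or 4 mice per group, the overlap of age with sex, and thin counts for Pars2.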
